A study of Mus musculus with 8 samples.

Results

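Chromatin accessibility at 39 genes of the red-cell and platelet lineages was described in AML246, a mouse leukaemia cell line of the acute myeloid kind, grown in medium with the cytokine IL-3. ATAC-seq inserts adapters into open DNA with a transposase, and 50000 sorted cells went into each library. Doxycycline (Dox) at 0.1 µg/mL was given from day 0 to day 12 and then withdrawn. The labels name the first arm PU.1 restoration and the second PU.1 knockdown. Each of the 8 groups was 1 library: total viable cells untreated at day 0, then the same sort after 4, 8 and 12 days on Dox, then a second sort of day 12 for Cd11b-high viable cells, and last total viable cells 4, 8 and 12 days off Dox. The sources used here do not say how the PU.1 change is driven or whether the line is 1 clone. The lists hold no RNA or protein measure, so the level of PU.1 was not checked.

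The erythroid group held 25 genes and the megakaryocyte and platelet group 14. Of the 39, 38 matched the 21887 protein-coding genes of the mm10 RefSeq table, and Ahsp did not. Peak summits of the 8 libraries, extended by 150 bp and merged, gave 68800 regions. A region belonged to a gene when that gene's span was the nearest within 100 kb of the region's midpoint. By this rule 51 regions belonged to 19 erythroid genes and 38 regions to 8 megakaryocyte genes, 89 of the 64638 regions assigned to any gene. A region was called open in a library that had a summit in it, and a region without one was not called rather than shown to be closed. Each summit carries a score, the −log10 of a p or q value. It moves with read depth, so scores are given below to show how strong a call was within its own list.

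In these lineages GATA1 acts with ETS- and KLF-family factors. PU.1 is known to oppose GATA1 in blood progenitors. Genes restricted to the red-cell and platelet lineages are normally silent in mature myeloid cells. The groups described here also hold genes used in other cells, such as Bcl11a and Mef2c. An open region at a member is therefore not by itself a sign of lineage-specific opening. Red-cell precursors rely on erythropoietin signalling, transferrin-bound iron, haem synthesis, globins and a spectrin-based membrane skeleton. Megakaryocytes build platelets whose granules hold chemokines and adhesive proteins and whose surface carries receptors for von Willebrand factor, collagen and fibrinogen.

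Start-site windows show what surrounded the calls. RefSeq promoter windows (GRCm38.p6, the build also called mm10) run from 250 bases before to 50 bases after a start. They matched 17 erythroid and 12 megakaryocyte genes, and 9 of them are printed 5′ to 3′ in the direction of the gene. The first 4 lie where a member's region was lost or where a summit lay in or beside the window, the next 2 had an open window in all 8 libraries, and the last 3 had no summit in any library. Capitals mark matches on either strand to a GATA word (AGATAA or its variant TGATAA, and, with another last base, AGATAG or its variant TGATAG), the CACCC word CCACCC, the ETS word AGGAAG, the PU.1 core GAGGAAGT, which contains the ETS word, and the RUNX word TGTGGT. The windows are chr9:21963527-21963826 (minus strand) for Epor, chr12:76710498-76710797 (minus) for Sptb, chr2:28621933-28622232 (minus) for Gfi1b, chr11:102469834-102470133 (minus) for Itga2b, chr16:58669958-58670257 (plus) for Cpox, chr4:116994364-116994663 (minus) for Urod, chr8:84901732-84902031 (plus) for Klf1, chr11:32283422-32283721 (plus) for Hba-a1 and chr5:90772185-90772484 (plus) for Pf4.
Epor: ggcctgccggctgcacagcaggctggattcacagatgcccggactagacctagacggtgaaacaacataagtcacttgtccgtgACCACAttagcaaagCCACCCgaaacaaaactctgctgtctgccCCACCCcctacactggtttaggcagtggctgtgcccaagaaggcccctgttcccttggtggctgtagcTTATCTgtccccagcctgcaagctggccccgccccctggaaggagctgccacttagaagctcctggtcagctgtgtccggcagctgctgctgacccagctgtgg
Sptb: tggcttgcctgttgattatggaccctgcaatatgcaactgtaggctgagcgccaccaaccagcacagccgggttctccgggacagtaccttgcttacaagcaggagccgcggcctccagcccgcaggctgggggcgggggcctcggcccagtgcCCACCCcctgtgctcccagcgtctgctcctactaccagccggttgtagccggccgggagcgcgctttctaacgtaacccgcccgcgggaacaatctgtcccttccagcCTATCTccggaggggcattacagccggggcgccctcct
Gfi1b: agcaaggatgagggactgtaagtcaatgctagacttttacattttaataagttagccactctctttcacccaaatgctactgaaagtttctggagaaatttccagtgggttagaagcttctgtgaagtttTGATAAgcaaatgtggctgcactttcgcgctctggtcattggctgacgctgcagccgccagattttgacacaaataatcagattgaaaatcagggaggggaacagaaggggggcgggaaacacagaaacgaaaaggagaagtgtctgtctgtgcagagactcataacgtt
Itga2b: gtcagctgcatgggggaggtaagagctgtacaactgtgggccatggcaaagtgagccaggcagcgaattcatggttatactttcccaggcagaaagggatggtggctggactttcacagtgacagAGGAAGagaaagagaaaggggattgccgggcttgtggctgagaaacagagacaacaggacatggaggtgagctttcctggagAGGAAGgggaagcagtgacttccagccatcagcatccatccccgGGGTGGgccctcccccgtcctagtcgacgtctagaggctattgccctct
Cpox: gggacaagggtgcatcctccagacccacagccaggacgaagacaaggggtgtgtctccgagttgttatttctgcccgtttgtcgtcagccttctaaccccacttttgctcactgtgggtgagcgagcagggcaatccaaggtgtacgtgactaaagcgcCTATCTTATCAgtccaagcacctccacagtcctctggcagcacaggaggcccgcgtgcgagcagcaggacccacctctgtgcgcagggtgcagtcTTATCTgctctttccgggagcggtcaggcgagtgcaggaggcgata
Urod: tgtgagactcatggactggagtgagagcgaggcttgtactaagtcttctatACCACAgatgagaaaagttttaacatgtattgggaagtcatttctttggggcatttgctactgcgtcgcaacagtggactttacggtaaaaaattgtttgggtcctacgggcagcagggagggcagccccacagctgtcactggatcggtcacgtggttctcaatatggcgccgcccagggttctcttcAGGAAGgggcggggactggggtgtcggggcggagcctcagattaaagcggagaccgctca
Klf1: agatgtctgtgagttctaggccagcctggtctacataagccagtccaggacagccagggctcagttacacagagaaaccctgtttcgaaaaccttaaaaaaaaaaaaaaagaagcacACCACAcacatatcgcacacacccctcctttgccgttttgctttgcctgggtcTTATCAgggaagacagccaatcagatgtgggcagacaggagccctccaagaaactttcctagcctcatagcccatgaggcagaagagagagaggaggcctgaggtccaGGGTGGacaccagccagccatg
Hba-a1: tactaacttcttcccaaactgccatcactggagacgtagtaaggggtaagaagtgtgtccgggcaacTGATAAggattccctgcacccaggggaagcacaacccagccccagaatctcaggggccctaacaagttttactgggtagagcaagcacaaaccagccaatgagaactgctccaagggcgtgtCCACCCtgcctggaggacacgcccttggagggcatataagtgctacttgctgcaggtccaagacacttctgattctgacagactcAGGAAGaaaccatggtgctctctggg
Pf4: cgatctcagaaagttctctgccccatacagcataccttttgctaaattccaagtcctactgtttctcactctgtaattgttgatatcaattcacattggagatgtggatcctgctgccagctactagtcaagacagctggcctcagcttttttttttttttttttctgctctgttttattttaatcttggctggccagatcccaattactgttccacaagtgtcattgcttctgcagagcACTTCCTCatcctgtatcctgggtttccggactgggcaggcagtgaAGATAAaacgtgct

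A GATA word was present in 12 of 18 erythroid windows (66.7%) and in 5 of 14 megakaryocyte windows (35.7%), beside 26.0% of 21263 windows of all genes. Tfrc has more than 1 window, as has Mef2c. The CACCC word was in 13 erythroid windows (72.2%) and 5 megakaryocyte windows (35.7%), beside 33.6% of all. The ETS word was in 6 erythroid windows (33.3%) and 9 megakaryocyte windows (64.3%), beside 34.4% of all. The PU.1 core was in 0 erythroid windows and in 1 megakaryocyte window, that of Pf4, beside 3.13% of all. The RUNX word was in 5 erythroid windows (27.8%) and 1 megakaryocyte window (7.14%), beside 15.0% of all. The GATA and CACCC shares were highest in the erythroid windows and the ETS share in the megakaryocyte windows. A match describes letters in the window and is no binding site, and absence says nothing of a factor.

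A window was open in a library where one of its summits, extended by 150 bp, overlapped it. Most of these windows had no call in any library. No library had a region over the window of 10 of the 17 erythroid genes: Klf1, Rhag, Rhd, Ermap, Hba-a1, Hbb-bt, Alas2, Epb42, Trim10 and Bcl11a. The same held for 11 of 12 megakaryocyte genes, Pf4, Ppbp, Gp1ba, Gp9, Gp5, Gp6, Selp, Treml1, Tubb1, Clec1b and Mef2c. Among all 17492 genes with a window, 48.0% had none. Matched members without a window are left out of these counts: Nfe2, Slc4a1, Ank1, Car1, Car2, Fech, Xpo7, Vwf and Thbs1. Of these, Nfe2, Fech, Car2 and Thbs1 had a region within 1 kb of a gene end open in all 8 libraries. The erythroid windows open in all 8 libraries were those of Cpox and Urod, which encode haem-synthesis enzymes, and Tfrc, the transferrin receptor. At day 0 the share of open windows was 29.4% (10.3 to 56.0, exact 95% interval) for erythroid genes and 8.33% (0.211 to 38.5) for megakaryocyte genes, beside 46.4% of all genes. At day 12 it was 23.5%, 8.33% and 44.4%. The start of Klf1, an activator of red-cell genes, was not called, while a region 1213 bp past its start scored 21.1 to 40.5 in the 8 libraries. Klf3, a repressor of the same family, had summits at -431 to -300 bp from its start that scored 35.0 to 56.9 in all 8, but that region (chr5:64802940-64803371) lies inside an overlapping gene model and is not among the 51.

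**Figure D1:**
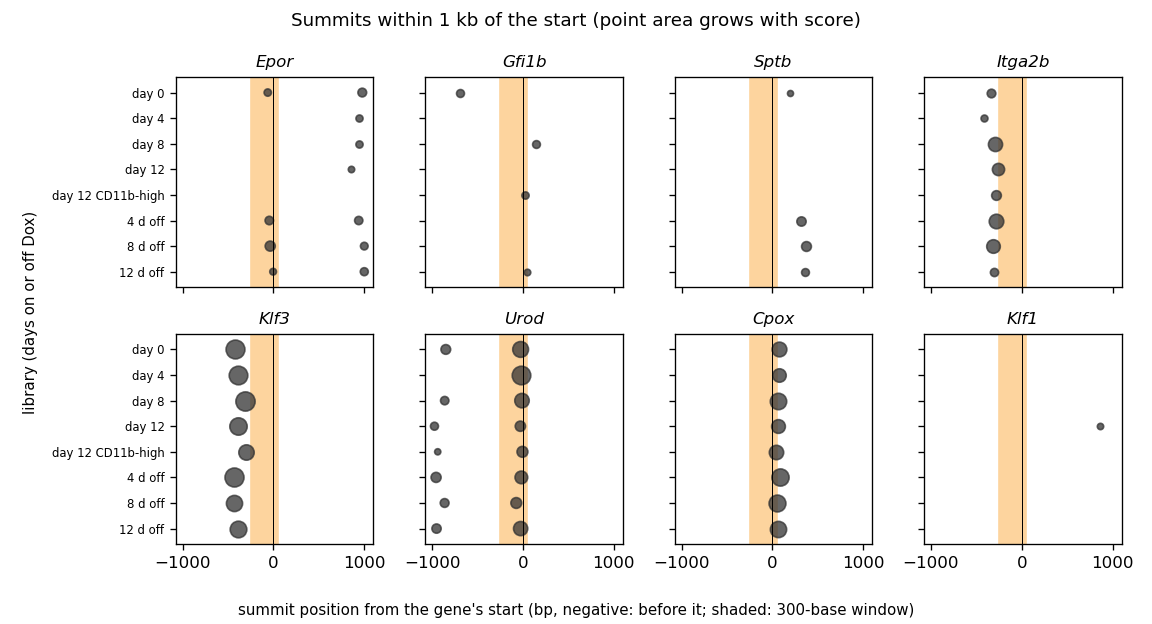
Summit positions within 1 kb of the start of 8 genes, 1 row per library. The horizontal axis is distance from the start in bp and point area grows with the score. Cpox and Urod have a summit at the start in every library, Epor only at day 0 and off Dox, and Klf1 has none in its window.

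During restoration the erythroid regions held more lost than gained calls. A lost region was open at day 0 and not at day 4, 8 or 12. A gained region was not open at day 0 and open at all 3 later times. Among the 51 erythroid regions 7 were lost (13.7%, 5.70 to 26.3) and 2 gained (3.92%, 0.478 to 13.5). Of all 64638 assigned regions 5.49% were lost and 4.86% gained. The 38 megakaryocyte regions held 3 lost and 3 gained (7.89% each, 1.66 to 21.4). Regions open at all 4 restoration times made up 18 erythroid (35.3%, 22.4 to 49.9) and 11 megakaryocyte regions (28.9%, 15.4 to 45.9), beside 32.5% of all assigned. With 1 library per group there is no replicate check and no test was run. Intervals cover only counting error, and regions of 1 gene share a locus. The lost and gained counts all rest on the same day-0 list.

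All 7 lost erythroid calls were weak in their list. Their day-0 scores ran from 2.32 to 7.23 with a median of 5.11, beside a median of 5.45 for the 3547 lost regions of all genes and 11.9 for all regions open at day 0. At a score of at least 10, 1 of 31 erythroid regions was lost (3.23%, all genes 5.01%) and 3 were gained (9.68%, all genes 3.74%). None of the 7 lost regions reached 10 at day 0, and a call below 10 counts here as no call. The Ank1 region at chr8:23149572-23149944 met the lost rule (12.9 at day 0) with calls of 9.58 and 4.00 at day 8 and 12. Regions of Gfi1b (chr2:28618728-28619281) and Klf3 (chr5:64864635-64865037) open in all 8 libraries met the gained rule from day-0 scores of 8.71 and 5.05. With lists of equal length, 8 of 46 were lost (17.4%, all genes 7.32%). The erythroid lost share thus lay above that of all genes or below it depending on the score limit. Without the day 4 library 11 erythroid regions were lost (21.6%, all genes 7.33%) and 4 gained (7.84%, all genes 9.94%). Without the day 12 library 4 were gained (7.84%, all genes 7.49%). Against day 12 alone 14 were lost (27.5%, all genes 15.7%) and 5 gained (9.80%, all genes 13.5%). In these 3 settings the erythroid gained share was near or below that of all genes. In the megakaryocyte group 6 were gained without the day 4 library (15.8%, all genes 9.94%) and 7 lost without the day 8 library (18.4%, all genes 8.79%). Against day 12 alone 8 were gained (21.1%) and 9 lost (23.7%), beside the same 13.5% and 15.7% of all genes. No megakaryocyte region was lost at a score of at least 10, beside 5.01% of all genes. The 3 lost megakaryocyte regions scored 2.62 to 5.53 at day 0, so that limit removed them in advance.

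**Figure D2:**
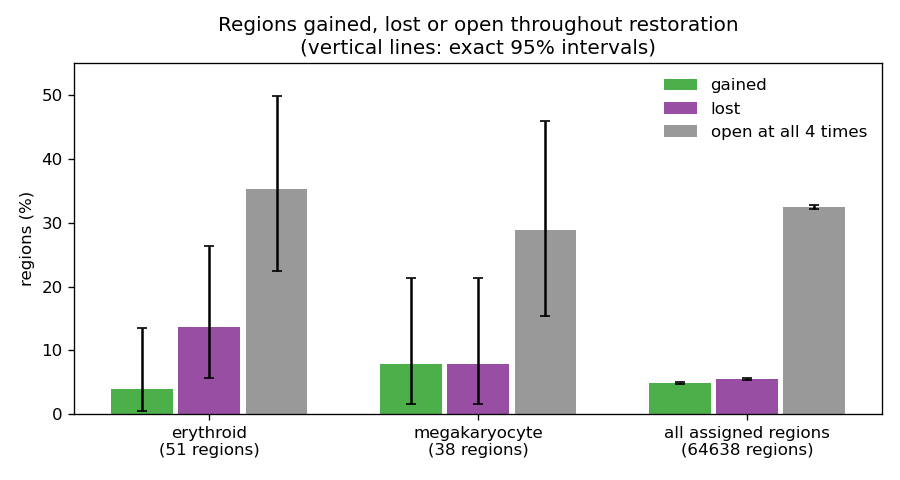
Percent of regions gained, lost or open at all 4 restoration times (vertical axis) for erythroid, megakaryocyte and all assigned regions. Vertical lines are exact 95% intervals. Lost regions make up 13.7% of erythroid regions (5.70 to 26.3) and 5.49% of all. At a score of at least 10 these shares are 3.23% and 5.01%, but none of the 7 lost erythroid regions reached that limit at day 0. The intervals cover only counting error, and regions of 1 gene share a locus.

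Among receptors, Epor encodes the erythropoietin receptor. Its lost region (chr9:21963430-21963789) overlaps the printed Epor window. The region scored 5.11 at day 0 and was not called at day 4, 8, 12 or in CD11b-high cells. It scored 8.09, 13 and 3.76 at 4, 8 and 12 days off. Its summits lay at -63 bp from the start at day 0 and at -46, -36 and -4 bp at those 3 times off. The Epor start was therefore called in each library off Dox and in no library on it. A second Epor region inside the gene (chr9:21962425-21962871) was open in all 8, with scores of 2.02 in CD11b-high cells to 8.85 at day 0. Tfrc, through which precursors take up iron, had 1 region (chr16:32608695-32609149) over its start. It was open in all 8 and scored 41.8 at day 0, 46.7, 42.2 and 25 at day 4, 8 and 12, 30.7 in CD11b-high cells, and 57.8, 37.7 and 29.3 off Dox.

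Transcription factors held the strongest erythroid region. Nfe2 encodes a subunit of the factor NF-E2, which acts at globin and platelet genes. Its region 88 bp outside the gene (chr15:103258316-103258666) was open in all 8 libraries with scores of 42.1 at day 12 to 74.5 at day 8. A weaker region 1846 bp outside Nfe2 (chr15:103260089-103260410) was lost, scoring 4.70 at day 0, and was called again at 4 and 8 days off (6.36 and 3.80). Both other regions of Nfe2 whose calls varied lay inside the gene. One (chr15:103250226-103250552) was called in 6 libraries but not at day 8 or in total cells of day 12. The other (chr15:103255281-103255635) was called in 6 but in neither day-12 library. Nfe2 had 5 regions open at day 0, 4, 3 and 2 at day 4, 8 and 12, 3 in CD11b-high cells, and 5, 5 and 4 off Dox.

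Klf1 held 3 regions. The one inside the gene at chr8:84903001-84903389 was open in all 8 libraries. It scored 40.5 at day 0, 39, 38.2 and 25.8 at day 4, 8 and 12, 21.1 in CD11b-high cells, and 34.7, 22.5 and 33.0 off Dox. The lost Klf1 region (chr8:84904427-84904763) scored 2.64 at day 0 and came back only at 8 days off, at 5.35. Another (chr8:84902696-84902996) was called in total cells of day 12 alone, at 2.96, and the nearest day-0 summit lay 315 bp away.

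Gfi1b, a repressor needed in both lineages, had 5 regions. The lost one (chr2:28622528-28622828), 696 bp before the start, was called at day 0 alone at 6.63, and a later restoration summit lay 840 bp away. The region over the start (chr2:28621688-28622113) was called at day 8 (6.30), in the CD11b-high library (4.98) and at 12 days off (3.38). The region 2978 bp inside the gene (chr2:28618728-28619281) was open in all 8, at 5.50 to 29.6. A region 10035 bp outside the gene (chr2:28599233-28599597) scored 9.84 at day 0 and 5.37 at day 8. Off Dox it scored 28.0, 17.0 and 20.7, and it had no call at day 4 or in either day-12 library. Gfi1b was thus called at its start in few libraries and inside the gene in all.

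Klf3 had 6 regions, of which chr5:64811635-64812968 and chr5:64864635-64865037 were open in all 8. The latter, 31935 bp outside the gene, had the lowest day-0 score of the erythroid regions open in all 8, 5.05. It scored 10.6, 21.6 and 11.4 at day 4, 8 and 12, 14.3 in CD11b-high cells, and 24.9, 14.5 and 11.5 off Dox. Klf3 is itself a target of KLF1 in red-cell precursors.

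Bcl11a, a repressor of globin genes with roles in lymphoid cells as well, held 1 of the 2 gained erythroid regions. It lies 88445 bp outside the gene (chr11:23987806-23988432). It scored 14.5, 16.5 and 14 at day 4, 8 and 12, 13.5 in the CD11b-high library and 8.29 at 4 days off. Day 0 and the last 2 times off had no call there. The nearest day-0 summit was 8438 bp away. The region 156 bp outside the same gene end (chr11:24076195-24076622) was called at day 0 (5.29), day 12 (2.38), 4 days off (12.4) and 8 days off (2.30). A region just inside (chr11:24077404-24077704) was called at 4 days off alone, at 5.69, in the longest list. The distant region was thus called in each library on Dox, and these regions near the gene end in no such pattern. Another region, 27103 bp outside the gene (chr11:24049237-24049686), was open in all 8, at 4.60 to 15.6.

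Membrane and skeleton genes held the other changes. Sptb encodes beta-spectrin. Its region at the gene end (chr12:76710026-76710507) was lost, with a day-0 score of 2.32, the lowest among lost erythroid regions. It was called off Dox at 10.5, 12.1 and 6.39, with summits 190 bp past the start at day 0 and 313, 371 and 358 bp past it off Dox. The nearest restoration summit of a later day lay 55141 bp away. Of the 7 lost erythroid regions, those of Sptb and Epor were called at each of the 3 times off, that of Nfe2 at 2 and that of Klf1 at 1. The share called at each time off was 28.6%, beside 15.9% of lost regions of all genes, and the share called at any of them was 57.1%, beside 64.4%. Another Sptb region (chr12:76593806-76594175) was open in all 8, at 4.87 to 14.9.

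Rhag and Ermap, which encode a Rh-complex protein and an erythroblast surface protein, each lost a region called at day 0 alone. The Rhag region (chr17:40824638-40824938) scored 7.23 and lies inside the gene, 13689 bp from its nearer end. It was the only region of Rhag. The Ermap region (chr4:119180400-119180700) scored 5.46, and a second Ermap region was called at 8 days off alone, at 3.64. Neither was ever called again, so each rests on 1 summit in 1 list.

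Rhd, the Rh blood-group gene, gained a region inside the gene (chr4:134883283-134883658). It scored 10.1, 16.1 and 4.03 at day 4, 8 and 12, 4.89 in CD11b-high cells, and 11.4, 8.50 and 4.80 off Dox. It was still called at each time off, unlike the gained Bcl11a region. The neighbouring Rhd region (chr4:134879375-134879957) was open at day 0 (3.57), at day 4 (8.63) and at all 3 times off, and in neither day-12 library nor at day 8.

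Ank1 encodes ankyrin, which ties spectrin to the membrane, and had 5 regions over a long gene. The regions at chr8:23027906-23028652 and chr8:23109248-23109610 were open in all 8 at modest scores, 3.99 to 12.3 and 3.72 to 17.3. The region 743 bp from a gene end (chr8:23149572-23149944) was missing at day 4 alone and scored 12.9 at day 0. Slc4a1, the red-cell anion exchanger, had 1 region (chr11:102338605-102338969), 10033 bp outside the gene. It was first called at day 8 (19.4), then at day 12 (5.36), in the CD11b-high library (10.7) and at 4 and 8 days off (9.39 and 7.08), and the nearest day-0 summit was 19272 bp away. It was 1 of the regions counted as gained without the day 4 library.

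Among haem genes, 3 had a region at a gene end in every library. Cpox, Urod and Fech encode late enzymes of haem synthesis, and each had such a region, open in all 8. These scored 26.0 to 44.8 at Cpox, 13.6 to 52.8 at Urod and 36.2 to 60.2 at Fech. A second Fech region inside the gene was called at day 0 (5.46) and day 4 (7.57) and in no later library. Car2, a carbonic anhydrase, had a region at its gene end open in all 8, at 5.84 to 21.0. Xpo7, a nuclear export receptor used by maturing red cells, had 1 region (chr14:70766573-70766993) open in all 8 at 14.5 to 42.9, which lies in an overlapping gene as well.

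Globin genes had few or no calls. Hbb-bt, an adult beta-globin gene, had a region 144 bp outside it (chr7:103812218-103812543) at day 8 (7.43) and in total cells of day 12 (5.69). Another, 5432 bp outside, was called at day 4 (7.57), day 8 (11.9) and 4 days off (12.8). Neither was called at day 0. Hba-a1, an alpha-globin gene, had no region, and the nearest region of any gene lay 2476 bp away. Alas2, which starts haem synthesis in red cells, Epb42, Car1 and Trim10 had none either. Their nearest regions lay 17565, 9457, 58967 and 14702 bp away.

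**Figure D3:**
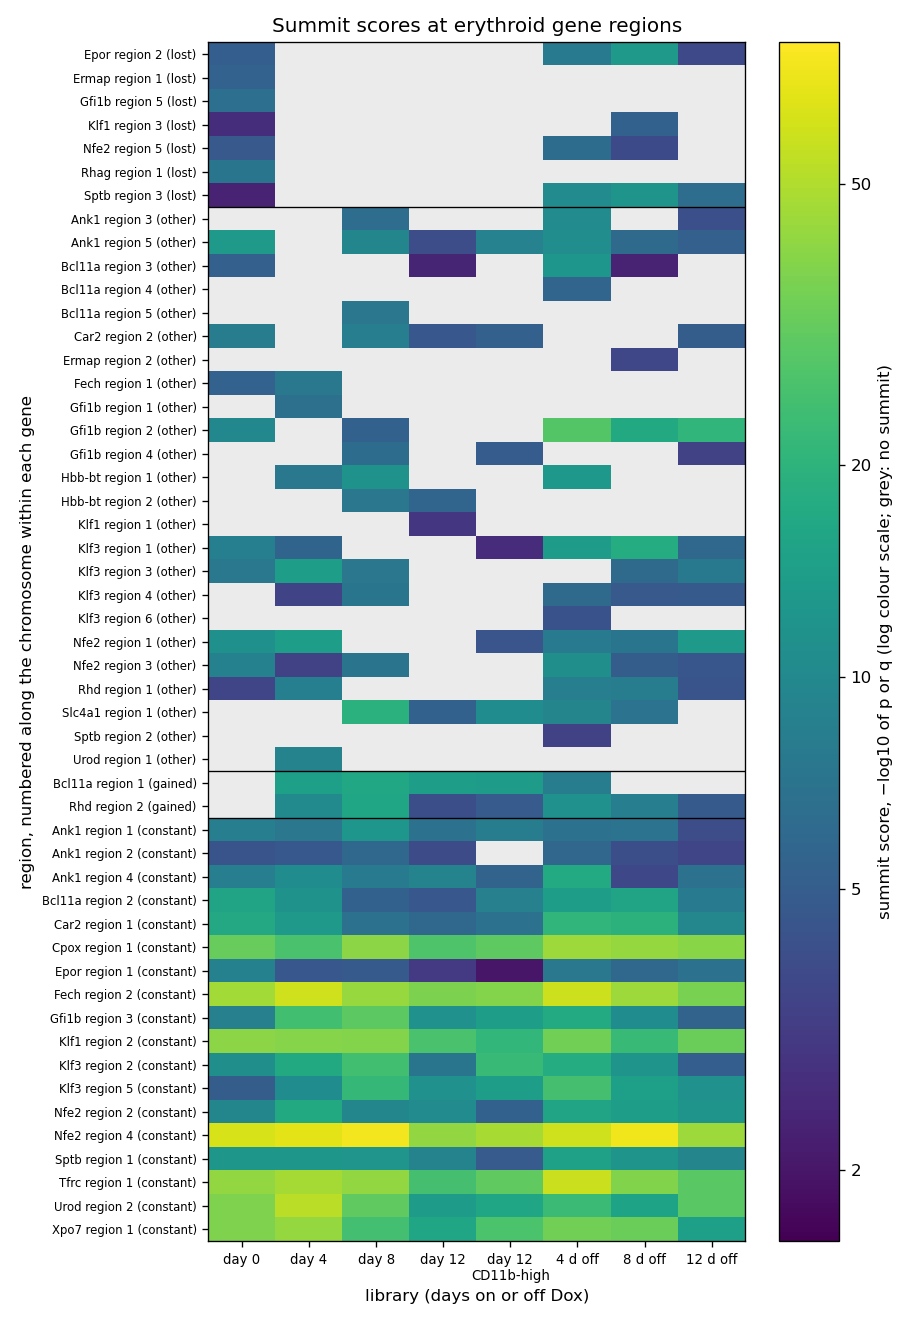
Summit scores (colour, log scale) at the 51 erythroid regions in the 8 libraries. Grey marks no summit. Regions are grouped by lost, other, gained and constant calls, and the 7 lost regions score 2.32 to 7.23 at day 0.

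Megakaryocyte regions were concentrated in few genes. Vwf had 12 of the 38, Thbs1 8, Selp 6, Mef2c 5 and Itga2b 3. Gp9 had 2, Pf4 and Gp6 1 each, and Ppbp, Gp1ba, Gp5, Treml1, Tubb1 and Clec1b none. Counts over the group therefore describe a handful of loci rather than 14 genes. A gene with none could still lie near a region of another gene. The nearest lay 2074 bp from Clec1b, open in 6 libraries. Those 3082 bp from Gp1ba and 5779 bp from Tubb1 were open in all 8. For Ppbp, Gp5 and Treml1 it lay 5657, 23576 and 12479 bp away, open in 1 library each.

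Itga2b encodes the alpha subunit of the platelet fibrinogen receptor, and its 3 regions were open in all 8 libraries. The region 2607 bp inside the gene (chr11:102467090-102467463) scored 47.7 at day 0, 51.1, 32.9 and 13 at day 4, 8 and 12, 18.7 in CD11b-high cells, and 27.6, 26.7 and 23.1 off Dox. The region 336 bp before the start (chr11:102469994-102470445), which overlaps the printed Itga2b window, scored 8.52 at day 0, 4.21, 29.1 and 20.8 at day 4, 8 and 12, 11.7 in CD11b-high cells, and 31.0, 26.5 and 7.40 off Dox. The region inside the gene had the higher score in 6 of the lists. The one before the start had it in total cells of day 12 and at 4 days off. A further region (chr11:102455662-102456387) scored 9.54 to 28.8.

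Selp encodes P-selectin of platelet granules and endothelium. Its region at chr1:164135334-164135674 was open in all 8 with scores of 45.1 to 76.4. The lost Selp region (chr1:164147913-164148215) scored 5.53 at day 0 and 5.60 at 4 days off. A region 11208 bp from a gene end (chr1:164138660-164138977) scored 15.2, 17.5 and 9.82 at day 0, 4 and 8 and 7.97 at 8 days off, and was in neither day-12 library. The strong Selp region lies inside the gene, 20240 bp from its start, whose own window had no call.

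Vwf encodes von Willebrand factor, made in megakaryocytes and endothelium. Its regions at chr6:125573227-125573586 and chr6:125603246-125603611 were open in all 8, at 21.7 to 54.8 and 15.9 to 37.8. The lost region (chr6:125588279-125588697) scored 5.46 at day 0 and 3.35 at 4 days off. A region 26661 bp outside the gene (chr6:125526126-125526449) was called at day 8 (4.39) and in total cells of day 12 (6.82) only. The other 8 were called in 1 to 5 libraries.

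Thbs1 encodes thrombospondin. The region 115 bp outside the gene (chr2:118111554-118111968) was open in all 8, at 12.7 to 35.8. The adjoining region (chr2:118111110-118111497) was missing at day 4 and at 8 days off. The lost Thbs1 region (chr2:118012551-118012851), 99175 bp from the gene, scored 2.62, and a day-8 summit of the next region (7.33) lay 301 bp away. A region close by (chr2:118013167-118013566) was open in all 8 at 3.86 to 20.9, so this loss stands amid other calls. A region 474 bp past the other end (chr2:118127319-118127895) was called at day 8 (5.27), day 12 (4.91) and 4 days off (8.10).

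Mef2c, a transcription factor of megakaryocytes and of other blood cells, lymphoid ones among them, held 2 of the 3 gained megakaryocyte regions. Both lay inside the gene. The first (chr13:83572042-83572394), upstream of an internal start, scored 9.35, 9.62 and 12.8 at day 4, 8 and 12 and 4.24 in CD11b-high cells, and was not called off Dox. The second (chr13:83609131-83609545) scored 16.1, 28.7 and 10.1 at these times, 18.1 in the CD11b-high library, and 4.26 and 7.08 at 4 and 8 days off. The nearest day-0 summits lay 142929 and 105778 bp away. Both were called at each time on Dox and in neither the day-0 list nor that of 12 days off. A region 48045 bp outside Mef2c (chr13:83714923-83715325) was open in all 8, at 3.57 to 11.2.

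Gp6, the platelet collagen receptor, gained a region inside the gene (chr7:4370445-4370838), its only one. It scored 5.08, 6.38 and 3.57 at day 4, 8 and 12 and 8.29 and 7.08 at 4 and 8 days off. It was not called in CD11b-high cells or at 12 days off. Gp9, a subunit of the von Willebrand factor receptor, had a region 5325 bp outside the gene (chr6:87770615-87770997). It was called at day 0 (12.1), day 8 (11.9), in the CD11b-high library (6.36) and at 4 and 8 days off (12.8 and 7.08). Another, 172 bp from the gene end (chr6:87779449-87779779), was called at day 8 (6.72) and in total cells of day 12 (2.30). Pf4, a platelet chemokine, had 1 call, at 12 days off (3.48), 2337 bp from the gene. None of the 3 gained megakaryocyte regions was open at 12 days off (0 to 70.8, exact 95% interval in percent), beside 26.9% of gained regions of all genes.

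**Figure D4:**
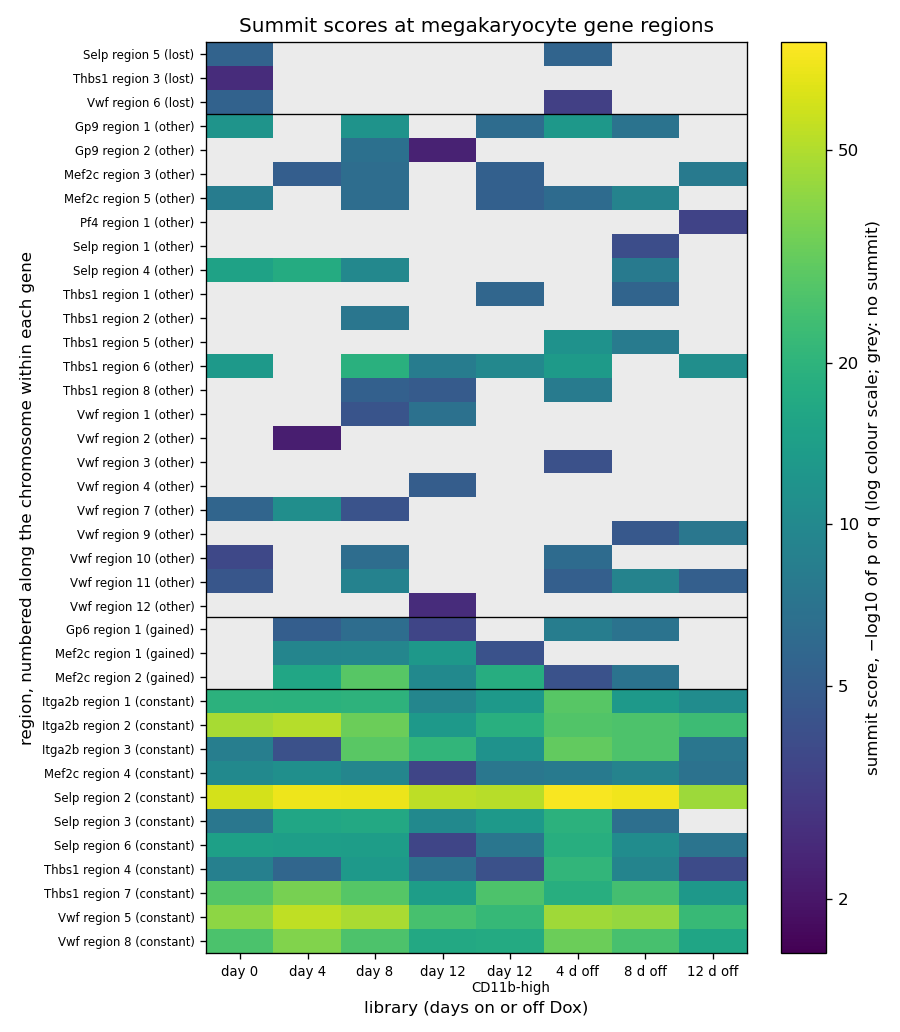
Summit scores (colour, log scale) at the 38 megakaryocyte regions in the 8 libraries, grouped as in the erythroid plot. Grey marks no summit. The gained Mef2c and Gp6 regions are grey at day 0 and at 12 days off.

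Counted over libraries, 35 of the 51 erythroid regions were open at day 0 (68.6%), 30, 32 and 26 at day 4, 8 and 12, 25 in CD11b-high cells, and 37, 34 and 32 off Dox. Of all assigned regions 52.1% were open at day 0, 51.0%, 67.3% and 49.9% at day 4, 8 and 12, 51.3% in CD11b-high cells, and 73.3%, 59.6% and 46.0% off Dox. The erythroid share was above that of all regions at day 0, at day 4 (58.8%) and at 8 and 12 days off (66.7% and 62.7%). It was slightly above at day 12 (51.0%) and below at day 8 (62.7%), in the CD11b-high library (49.0%) and at 4 days off (72.5%). Per 10000 open regions of the same library this was 9.88 (6.89 to 13.7) at day 0, 8.70, 6.97 and 7.62 (4.98 to 11.2) at day 4, 8 and 12, 7.11 in CD11b-high cells, and 7.40, 8.37 and 10.3 (7.02 to 14.5) off Dox. The values at both ends of the course were the highest, but all 8 intervals overlapped. With lists of equal length the values were 9.83 at day 0 and 10.2 at 12 days off. With calls limited to scores of 10 or more they fell to 6.40 at day 0 and 6.87 at 12 days off, so the high ends of the course rested on weaker calls.

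Megakaryocyte regions were open in 21 of 38 cases at day 0, 18, 26 and 20 at day 4, 8 and 12, 18 in CD11b-high cells, and 23, 21 and 15 off Dox. Per 10000 open regions they ranged from 4.60 at 4 days off to 5.93 at day 0, again with overlapping intervals. In a bulk sample, opening in fewer cells and weaker opening in every cell cannot be told apart.

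**Figure D5:**
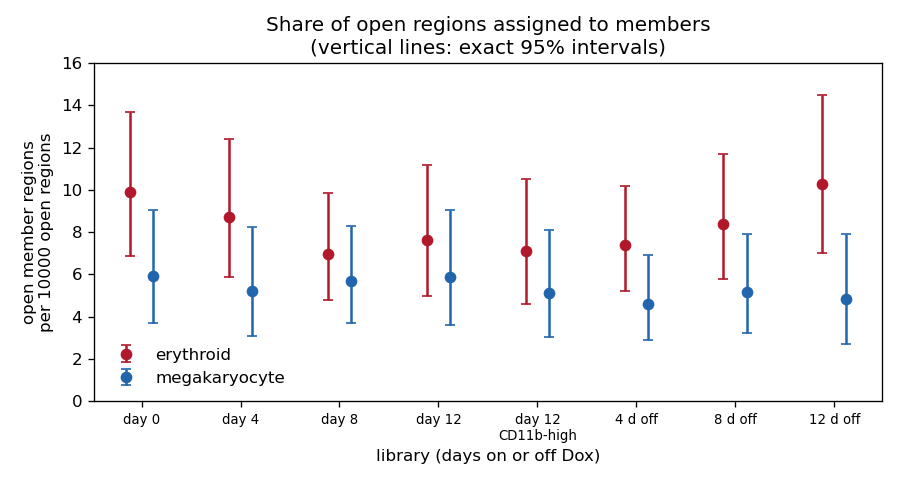
Open member regions per 10000 open regions of each library (vertical axis) by library (horizontal axis), erythroid in red and megakaryocyte in blue, with exact 95% intervals as vertical lines. Erythroid values run from 6.97 at day 8 to 10.3 at 12 days off, and megakaryocyte values from 4.60 to 5.93.

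Of the 14 erythroid regions called at day 0 but not in total cells of day 12, 8, 10 and 8 were open at 4, 8 and 12 days off (57.1%, 71.4% and 57.1%). Of all assigned regions with that pattern, which made up 15.7%, the shares were 70.0%, 64.5% and 43.2%. The erythroid share at 12 days off had an interval of 28.9 to 82.3, which takes in the share of all regions. Those open at all 3 times off were 7 of the 14 (50%, beside 33.2% of all), at Epor, Sptb, Rhd, Gfi1b, Klf3 and Nfe2. Of the 9 megakaryocyte regions with that pattern, 6, 4 and 1 were open at the same times, and the 1 at 12 days off was in Vwf.

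In the reverse direction, 13.5% of all assigned regions were open at day 12 and not at day 0. Of 5 such erythroid regions 3, 2 and 1 were open at 4, 8 and 12 days off, and of 8 megakaryocyte regions 3, 2 and 0. Over all genes these shares were 57.8%, 35.2% and 19.2%. The fall with time off Dox was thus seen for both groups and for all genes. Over the same libraries the open share of all assigned regions fell as well, at 73.3%, 59.6% and 46.0%. The part of list length in this fall was not tested. These sets share the day-0 and day-12 lists.

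The Cd11b-high sort enriches for cells with the myeloid integrin CD11b. Against total cells of day 12, 3 erythroid regions were open in CD11b-high cells only and 4 in total cells only, with 22 in both. For all genes the shares were 10.5% and 9.15%. The CD11b-high calls were at Gfi1b (4.98), Klf3 (2.60) and Nfe2 (4.45). Those of total cells were at Klf1 (2.96), Hbb-bt (5.69), Ank1 (3.94) and Bcl11a (2.38). In the megakaryocyte group 4 were open in CD11b-high cells only and 6 in total cells only. The first 4 were at Thbs1 (5.75, chr2:118011742-118012089), Gp9 (6.36) and Mef2c (5.27 each at chr13:83654908-83655224 and chr13:83725010-83725342). None of the 7 lost erythroid or 3 lost megakaryocyte regions was open in CD11b-high cells, beside 7.13% of lost regions of all genes.

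By position, 34 of 51 erythroid regions (66.7%) lay inside the gene and 18 (35.3%, 22.4 to 49.9) within 1 kb of a gene end. For all assigned regions these shares were 58.7% and 22.8%. Of megakaryocyte regions 24 of 38 (63.2%) lay inside and 6 (15.8%, 6.02 to 31.3) near an end. Regions open in all 8 libraries made up 17 of the 51 erythroid, 10 of the 38 megakaryocyte and 27.9% of all assigned regions. Regions called in 1 library made up 11 erythroid, 8 megakaryocyte and 23.1% of all. Of those 19, 6 were called at day 8 or at 4 days off, in the longest lists.

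Other genes of both lineages were set beside the members. The 42 further erythroid genes held 193 regions, with 7 gained (3.63%) and 12 lost (6.22%). The 30 further megakaryocyte genes held 199, with 13 gained (6.53%) and 7 lost (3.52%). These shares stand beside 4.86% gained and 5.49% lost over all genes. Among erythroid genes, Tfr2, the second transferrin receptor, lost 2 regions, of which chr5:137570679-137571597 was called in CD11b-high cells (2.82) and off Dox (8.42, 8.25 and 9.58). Zfpm1, which encodes a GATA1 partner, lost 1 that was called off Dox as well (6.41, 5.57 and 9.70). Hbq1a, Add2, E2f2 and Myb lost 1 each, Sox6 lost 3 and gained 1, and Foxo3 gained and lost 2 each. Lmo2 gained 2, and Epb41 and Dmtn 1 each. Gata1 had no region.

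Among megakaryocyte genes, Fli1, an ETS factor of platelet genes, gained 3 and Plek, a platelet kinase substrate, gained 3. Cd9 gained 2, and P2ry12, the platelet ADP receptor, and Itgb3, the partner of Itga2b, gained 1 each. The P2ry12 region (chr3:59260721-59261148) scored 5.08, 14.5 and 20.7 at day 4, 8 and 12. Mafg, Tbxas1 and Runx1 had both kinds, with Runx1 losing 2. Serpine2, F13a1 and Fyb lost 1 each. Several of these genes are also used by myeloid cells.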

How the data were processed

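Each of the 8 libraries came as a deposited list of peak summits with 1 score each, 31957 to 51175 per library. The tools named in the submitters' processing notes are Picard 2.14.0 and MACS2, with the build mm10. No aligner, filter or depth is given in the sources used here, so the depth behind a call is unknown. The deposited score was taken for a −log10 value of p or q, since each list began at 1.30 to 1.39, where 0.05 falls.

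Summits on the main chromosomes (85 to 121 per library lay elsewhere) were extended by 150 bp and merged. Each region went to the nearest protein-coding gene span within 100 kb of its midpoint, and a region inside more than 1 span counted for each (2 erythroid regions). Tables were made with Python 3.11.15, pandas 2.3.3 and scipy 1.17.1 (exact Clopper-Pearson 95% intervals). The region and gene assignment was tested on simulated data with summits planted near the middle of genes. That does not test regions outside genes, or weak or missed calls. No condition had a second library, so no test was run. Members, lists and naming rules were chosen with earlier results of these data known. The regions described singly are gained or lost, lie at a start or within 1 kb of a gene end and vary, were called in 1 day-12 library with a score of at least 5, or were open in all 8 with the 3 highest or lowest day-0 scores per group; others were added after their values were seen. Alternatives were a score of at least 10, lists of equal length, windows of 75 and 250 bp, a 10 kb limit, fewer later libraries, regions without summits of other lists within 1 kb, and, chosen after seeing the data, leaving out regions tied between genes.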

Additional observations from a re-analysis of the deposited data

How the results depend on the processing

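No paired analysis was possible because each group had 1 library. For 22 values (open regions per 10000 in each library, and gained, lost and constant shares) 11 alternatives gave 152 values, of which 146 stayed within the exact 95% interval of the reported one. The intervals are wide, so staying within one does not show a stable value. For the megakaryocyte gained share, 7.89%, the interval of 1.66% to 21.4% took in 21.1%. At a score of at least 10, open erythroid regions per 10000 were 6.40 at day 0 and 6.87 at 12 days off, and the lost share was 3.23% for erythroid and 0 for megakaryocyte regions, beside 5.01% of all. Against day 12 alone the lost share was 27.5% for erythroid and 23.7% for megakaryocyte regions, beside 15.7% of all assigned regions. That rule asks for fewer lists to concur. All lost member regions scored below 10 at day 0 (2.32 to 7.23 erythroid, 2.62 to 5.53 megakaryocyte), so the limit of 10 kept none of them. That limit also counts a region as not open where its summit scores below 10. Any other cause of the changes with the score limit was not tested. Over the alternatives the erythroid gained share ran from 2.38% to 9.80% and the megakaryocyte share from 6.67% to 21.1%, while that of all genes ran from 3.74% to 13.5%. Both upper member values are those of day 12 alone, as is the 13.5%. Counting only regions more than 1 kb from any opposing summit, 5 erythroid (9.80%) and 2 megakaryocyte regions (5.26%) were lost, beside 4.43% of all. The number of called summits, and with it unknown depth, limits what can be seen: a weak region may be missed in a short list.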

Other observations

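Marker lists of blood lineages give the setting of these calls. Of all assigned regions 4.86% were gained, 5.49% lost, 52.1% open at day 0, 49.9% in total cells of day 12 and 51.3% in CD11b-high cells. The 8 monocyte and macrophage marker genes held 30 regions, of which 12 were open at day 0, 19, 18 and 16 at day 4, 8 and 12, 18 in CD11b-high cells, and 20, 17 and 13 off Dox. They held 4 gained (13.3%, 3.76 to 30.7) and 0 lost regions (up to 11.6%). The 8 granulocyte marker genes held 21 regions, 4 gained (19.0%, 5.45 to 41.9) and 1 lost (4.76%), with 11 open at day 0 and 13 at day 12. The 5 mast cell and basophil marker genes held 16, 1 gained (6.25%) and 0 lost (up to 20.6%), with 5 open at day 0, 8 in total and 11 in CD11b-high cells of day 12. The 9 erythroid marker genes, of which 8 matched, held 11 regions, 1 gained (9.09%) and 3 lost (27.3%, 6.02 to 61.0), with 4 to 7 open in each library. The 8 megakaryocyte marker genes held 19, 1 gained and 1 lost (5.26% each), with 6 to 12 open. All erythroid and megakaryocyte markers are among the 39 members, so these are calls already counted above and no separate view. The 3 lost erythroid marker regions are those of Klf1, Epor and Rhag. Of the defining erythroid markers Hba-a1 and Alas2 were assigned no region by the nearest-gene rule. The same held for the megakaryocyte markers Gp1ba, Gp5 and Tubb1. Bounds are exact 95% intervals, and these lists hold few regions. The part of cell mixture in these counts was not tested.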
